A study of Mus musculus with 12 samples.

Results

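The genes described here were grouped as genes of proximal airway differentiation. Their levels were measured in whole mouse lungs at the embryonic stage E14.5, counted in days. They are 9 genes named by symbol. Scgb1a1, Scgb3a1, Scgb3a2 and Cyp2f2 belong to secretory cells, Foxj1 to ciliated cells and Trp63 to basal cells. Tfcp2l1, Cckar and Prom1 were listed as further genes of airway epithelium and are assigned to no cell type here. All 9 were among the 22180 genes measured on every array. Of the 9, only Cyp2f2 was read by more than 1 probe set, and its brightest on average was used.

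Single-colour Affymetrix arrays were hybridised with total RNA of 12 lung specimens, 4 per genotype. Yy1 mutant lungs were Yy1flox/flox;Shh+/Cre, Dicer mutant lungs were Dicerflox/flox;Shh+/Cre, and control lungs were Shh+/Cre. Every group, the controls included, therefore carried the Cre allele at the Shh locus. Shh is made by the airway epithelium at this age, so Cre acts there, while the RNA also came from mesenchyme, muscle, vessels and blood cells that lack Cre. In such RNA, fewer cells of a type and less RNA per cell cannot be told apart. The labels do not say whether specimens came from separate embryos or litters, so p-values measure only the spread between these specimens, which may be technical. The number of arrays limits the precision of every value.

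As background, the conducting airway forms from proximal epithelium that expresses Sox2, while the growing distal tips express Sox9. Proximal progenitors later become secretory (club) cells that release secretoglobins and carry detoxifying enzymes, ciliated cells that clear mucus, and basal cells that renew the epithelium of the trachea and large bronchi. Most of this differentiation in the mouse follows the branching stage sampled here.

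Values are given as log2 levels, in which a difference of 1 is a 2-fold change. The deposited values carry no detection call. As a rough guide to background, the levels of 1429 olfactory, vomeronasal and bitter taste receptor genes were used, since lung is not known for expressing them. Their median in control lungs was 3.52 and their 95th percentile was 5.89, which is called the background limit below. Probe sets differ in how strongly they bind, so a level near this limit is not proof of absence. Where a mutant mean was under the limit of its group and the control mean was not, the measured difference is given with its test. The fold is then given as a lower bound, with the limit in place of the mutant mean. This bound uses means alone and takes no account of the spread between arrays. The limit comes from other probe sets, so the bound can also be far smaller than the measured difference. Where both means were under their limits no fold is given.

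The genotypes themselves were checked by the floxed genes. Yy1 read 8.84 ± 0.104 in Yy1 mutants, against 9.03 ± 0.0710 in controls, and its difference of -0.19 did not pass the test (adjusted p = 0.125). Dicer1 read 8.19 ± 0.115 in Dicer mutants, against 8.81 ± 0.165 in controls, and fell by 0.61 (adjusted p = 0.00127). Whether these probe sets read the floxed exons is not known here. Yy1 mutants 2 and 3 and Dicer mutant 4 carried raised Y-linked genes, with Eif2s3y at 7.99, 5.92 and 7.84, against 3.73 to 4.48 in controls. They are called the Y-high arrays below. The sex-linked gene Xist read 8.55, 11.1 and 9.64 on these arrays, against 11.1 to 11.3 in controls. No control array was Y-high, so this trait was not balanced across the genotypes.

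In control lungs 3 of the 9 genes lay under the background limit, namely Scgb1a1 (4.31 ± 0.0698), Foxj1 (5.70 ± 0.209) and Trp63 (5.72 ± 0.138; SD, n = 4). Another 3 lay just above it, namely Scgb3a1 (6.01 ± 0.333), Scgb3a2 (6.04 ± 0.362) and Tfcp2l1 (6.04 ± 0.170), and their arrays fell on both sides of the limit. Cyp2f2 (7.98 ± 0.986), Prom1 (8.07 ± 0.0986) and Cckar (9.19 ± 0.129) were above it on all 4 control arrays. In Yy1 mutant and in Dicer mutant lungs 5 of the 9 genes were under the limit of their own group, as Scgb3a2 and Cyp2f2 had joined the 3 that were under it in controls. The count in controls depended on the limit: it was 1 at the 90th percentile of the receptor genes and 6 at the 99th.

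Cckar, Cyp2f2 and Scgb3a2 fell in both mutants. Of the 9 genes, 3 were called lower in Yy1 mutant lungs and 3 in Dicer mutant lungs, and none was called higher. A gene was called at an adjusted p under 0.05 over all 22180 genes (limma, Benjamini-Hochberg), and by that rule 3.84% of all genes were lower and 2.77% higher in Yy1 mutants (6.61% in all), while 3.97% were lower and 4.78% higher in Dicer mutants (8.75% in all). The median difference over the 9 genes was -0.17 in Yy1 mutants and -0.12 in Dicer mutants, beside 0.00161 and -0.03 over all genes. Both mutants were set against the same 4 controls, so their results are not independent.

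**Figure D1:**
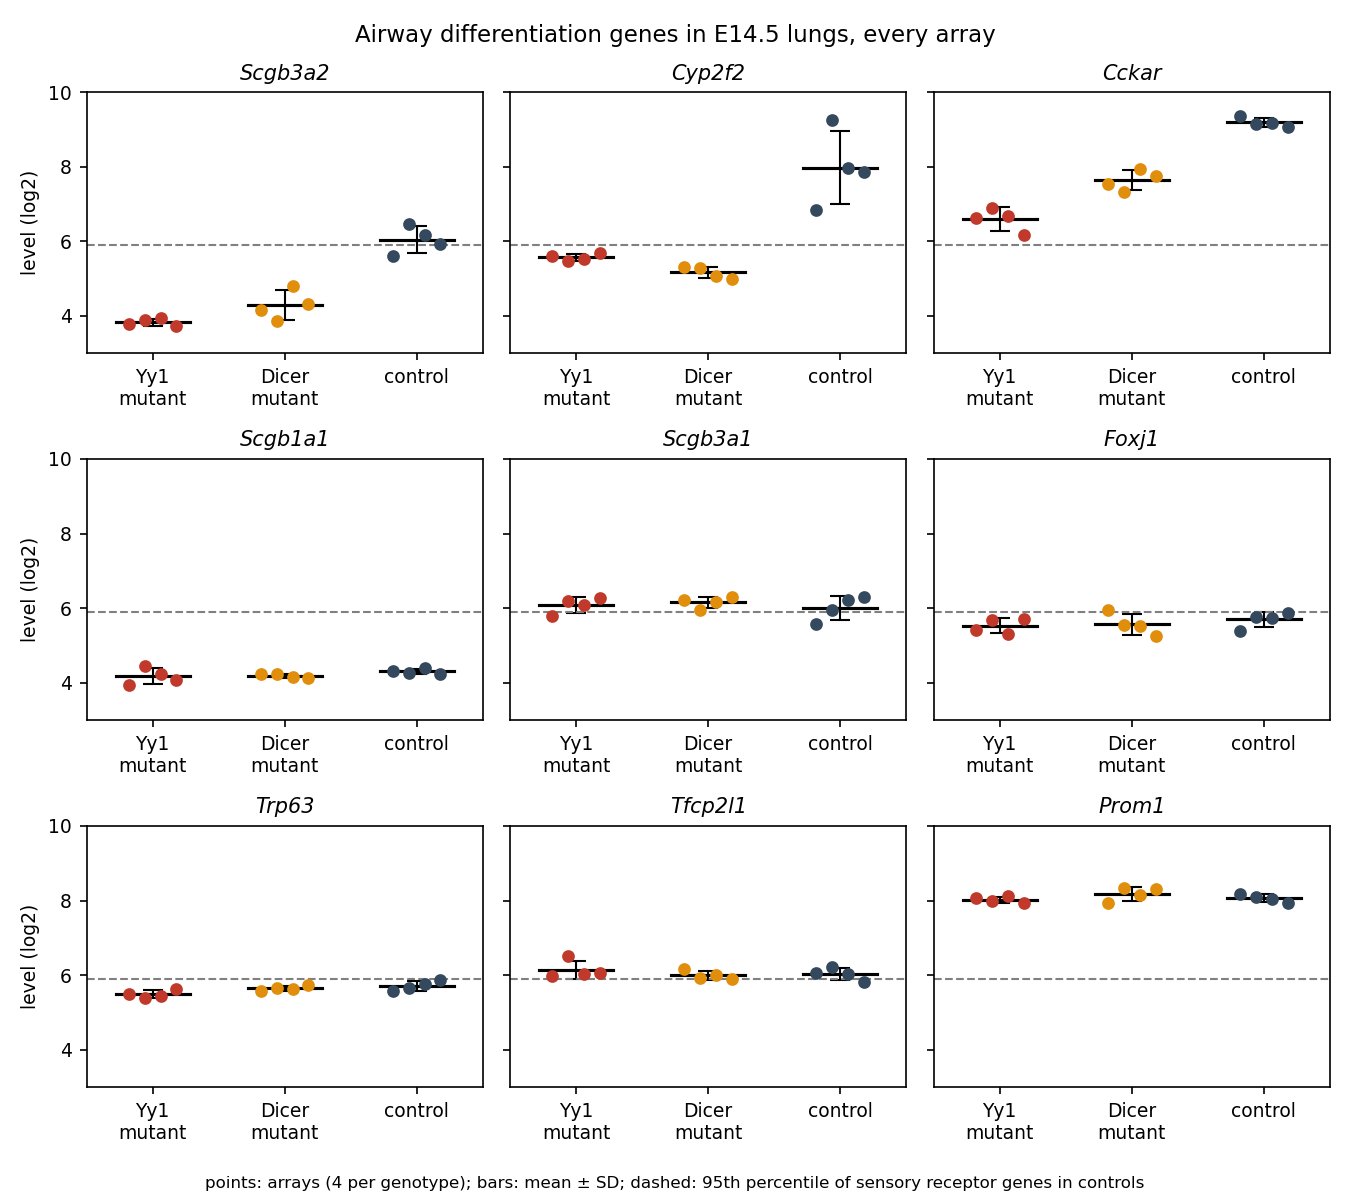
Level (log2) of each of the 9 genes on every array, by genotype; points are arrays, horizontal lines are means and vertical bars are the SD over 4 arrays. The dashed line is the background limit of 5.89. Scgb3a2, Cyp2f2 and Cckar stand lower on every mutant array than on any control array, while the remaining 6 genes lie at similar heights in the 3 genotypes.

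Among the secretory genes, Scgb3a2 encodes a small secreted protein of the secretoglobin family that appears early in airway epithelium. Its levels were 3.79, 3.89, 3.93 and 3.73 in Yy1 mutant lungs, 4.17, 3.86, 4.81 and 4.31 in Dicer mutant lungs, and 5.60, 6.45, 6.16 and 5.93 in control lungs. All 8 mutant arrays were below all 4 controls, and the mutants overlapped with each other. It fell in Yy1 mutants, with a measured log2 difference of -2.20 (SE 0.189; adjusted p = 1.18e-05, limma), and in Dicer mutants, with a difference of -1.75 (SE 0.189; adjusted p = 7.29e-05). Every mutant array was under the background limit, and the control mean was just above it. With the limit in place of the mutant means, the fall was at least 1.12-fold in Yy1 mutants and 1.19-fold in Dicer mutants. The limit comes from other genes and need not be the background of this probe set. The measured 95% intervals of Scgb3a2 were -2.61 to -1.80 in Yy1 mutants and -2.16 to -1.34 in Dicer mutants. In Yy1 mutants its mean of 3.83 was above only 57.5% of the sensory receptor genes, against 96.4% for its control mean. The difference of -0.45 between Yy1 and Dicer mutants (95% interval -0.86 to -0.05) lay under the limit on both sides and did not pass the test (adjusted p = 0.223).

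Cyp2f2 encodes a cytochrome P450 of club cells that activates inhaled compounds such as naphthalene. It read 5.61, 5.48, 5.52 and 5.69 in Yy1 mutant lungs, 5.31, 5.29, 5.06 and 5.001 in Dicer mutant lungs, and 6.84, 9.24, 7.97 and 7.85 in control lungs. The 4 controls were far apart from each other, whereas the arrays of each mutant lay close together under the background limit. It fell in Yy1 mutants (measured log2 difference -2.40, SE 0.339; adjusted p = 0.000661) and in Dicer mutants (-2.81, SE 0.339; adjusted p = 0.000179). With the limit in place of the mutant means, the means of this probe set differ by at least 4.28-fold in Yy1 mutants and 4.57-fold in Dicer mutants. These bounds rest on the mean of 4 controls that were far apart. The measured 95% intervals of Cyp2f2 were -3.13 to -1.67 in Yy1 mutants and -3.54 to -2.08 in Dicer mutants. All Dicer mutant arrays were lower than all Yy1 mutant arrays, but the difference of 0.41 (Yy1 mutant minus Dicer mutant; 95% interval -0.32 to 1.14) did not pass the test in the fit of all 3 genotypes (adjusted p = 0.584). That fit takes its spread from the controls as well. Fitted on the mutants alone its adjusted p was 0.0271, but both mutants were under the background limit on all their arrays, so no difference in Cyp2f2 expression between them is read from it.

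The other probe set of Cyp2f2 had a lower mean over all arrays (5.87 against 6.24) and separated the genotypes less. Its mean was lower only in controls (6.10 against 7.98). In Yy1 mutants (5.82 against 5.57) and Dicer mutants (5.70 against 5.17) it was higher. It read 5.69 to 5.98 in Yy1 mutant lungs, 5.61 to 5.81 in Dicer mutant lungs and 5.78 to 6.53 in control lungs, so each mutant overlapped with the controls. With it in place of the brighter probe set, the difference was -0.28 in Yy1 mutants (adjusted p = 0.293) and -0.40 in Dicer mutants (adjusted p = 0.0952), and neither passed. With both probe sets averaged, the differences were -1.34 (adjusted p = 0.00265) and -1.60 (adjusted p = 0.000628). The brighter probe set was chosen by its mean over all arrays, and only the controls made that mean the higher one. Which part of the transcript each probe set reads is not known here.

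**Figure D2:**
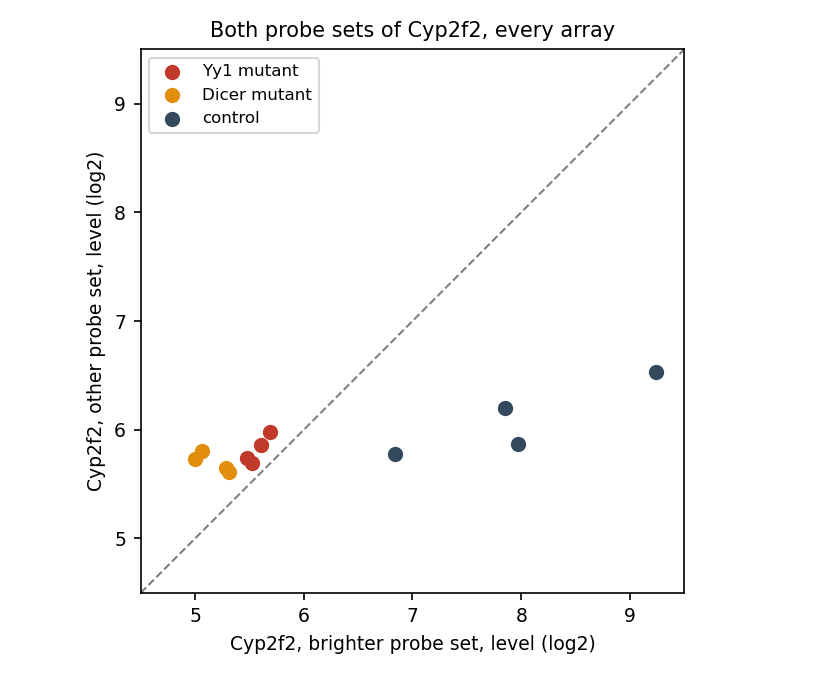
Level (log2) of Cyp2f2 by its brighter probe set, across, and by its other probe set, up the page, one point per array coloured by genotype; the dashed line marks equal levels. Controls spread from 6.84 to 9.24 on the brighter probe set and from 5.78 to 6.53 on the other, where the genotypes overlap. The brighter probe set is the one with the higher mean over all arrays.

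Scgb1a1, the secretoglobin that is the classical marker of mature club cells, was near background in all genotypes. Its levels were 3.95, 4.45, 4.24 and 4.08 in Yy1 mutant lungs, 4.24, 4.23, 4.15 and 4.13 in Dicer mutant lungs, and 4.32, 4.26, 4.40 and 4.25 in control lungs. The Dicer mutant arrays all lay below the controls, by a margin under the spread within groups, and the difference of -0.12 did not pass the test (adjusted p = 0.512). In Yy1 mutants the difference was -0.13 (95% interval -0.33 to 0.07; adjusted p = 0.526).

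Scgb3a1, another airway secretoglobin, read 5.78, 6.19, 6.08 and 6.26 in Yy1 mutant lungs, 6.22, 5.96, 6.17 and 6.30 in Dicer mutant lungs, and 5.57, 5.94, 6.21 and 6.31 in control lungs. The 3 groups overlapped. Its difference was 0.07 in Yy1 mutants (95% interval -0.25 to 0.39; adjusted p = 0.864) and 0.15 in Dicer mutants (-0.17 to 0.47; adjusted p = 0.607). These intervals leave out falls as large as the measured differences of Scgb3a2 and Cyp2f2, for a signal that itself sat close to background. In Yy1 mutants the interval does not leave out a difference of -0.16, the bound for Scgb3a2. In Dicer mutants it leaves out -0.25, the bound for Scgb3a2 there. Both bounds rest on the background limit and are not measured differences.

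The promoters of Cyp2f2, a secretory gene that fell, and Scgb3a1, one that was not called, are shown because both genes belong to the same cell type. Promoter windows from RefSeq (GRCm38.p6) were used for 4 of the 9 genes, namely Scgb3a1, Cyp2f2, Tfcp2l1 and Prom1. Scgb3a2, the other secretory gene that fell, was left out of this search. Each window runs from 250 bases before to 50 bases after the start site. Matches to 3 motifs were looked for on both strands, GCCATNTT for Yy1, TNTTTAC for forkhead factors such as Foxa2, and CACTTNA for Nkx2-1. Capitals mark the matches. The Cyp2f2 window is chr7:27119705-27120004, plus strand, and the Scgb3a1 window is chr11:49663345-49663644, plus strand.
Cyp2f2: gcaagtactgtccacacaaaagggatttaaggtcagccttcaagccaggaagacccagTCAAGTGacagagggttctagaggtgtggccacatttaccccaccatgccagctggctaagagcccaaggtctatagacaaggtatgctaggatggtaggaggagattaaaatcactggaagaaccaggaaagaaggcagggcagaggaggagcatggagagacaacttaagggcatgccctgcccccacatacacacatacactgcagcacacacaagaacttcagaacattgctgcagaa
Scgb3a1: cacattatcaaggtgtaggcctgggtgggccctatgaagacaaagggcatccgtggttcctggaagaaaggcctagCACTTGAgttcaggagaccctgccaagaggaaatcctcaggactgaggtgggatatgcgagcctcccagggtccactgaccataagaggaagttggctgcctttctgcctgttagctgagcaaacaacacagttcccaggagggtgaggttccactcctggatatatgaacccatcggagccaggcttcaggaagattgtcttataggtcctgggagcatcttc
Each window held 1 match to the Nkx2-1 letters, which 11.5% of all 32851 RefSeq promoter windows hold, and none to the Yy1 letters (6.05% of all) or the forkhead letters (12.4% of all). The first Prom1 window also held 1 match to the Nkx2-1 letters, and the windows of Tfcp2l1 and the second Prom1 start held none of the 3 motifs. A match to these letters is a description of the sequence and says nothing of binding.

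Foxj1, the transcription factor that switches on the genes of motile cilia, was near background in the 3 genotypes. It read 5.42, 5.68, 5.32 and 5.72 in Yy1 mutant lungs, 5.96, 5.54, 5.51 and 5.27 in Dicer mutant lungs, and 5.40, 5.78, 5.75 and 5.88 in control lungs. The groups overlapped. The difference was -0.17 in Yy1 mutants (95% interval -0.48 to 0.15; adjusted p = 0.61) and -0.13 in Dicer mutants (-0.44 to 0.18; adjusted p = 0.658).

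Trp63 encodes p63, the transcription factor that defines basal cells. Its levels were 5.51, 5.39, 5.43 and 5.64 in Yy1 mutant lungs, 5.59, 5.66, 5.62 and 5.73 in Dicer mutant lungs, and 5.57, 5.65, 5.77 and 5.88 in control lungs. In Yy1 mutants 3 of 4 arrays were below every control, and the difference of -0.22 (95% interval -0.40 to -0.05) did not pass after adjustment over all genes (adjusted p = 0.132). In Dicer mutants the difference was -0.07 (-0.24 to 0.11; adjusted p = 0.695). The controls were under the background limit already.

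Cckar, a G protein-coupled receptor for the gut peptide cholecystokinin, was the brightest signal of the 9 in control lungs and differed between every pair of genotypes. It read 6.62, 6.90, 6.69 and 6.16 in Yy1 mutant lungs, 7.54, 7.32, 7.94 and 7.74 in Dicer mutant lungs, and 9.37, 9.14, 9.17 and 9.06 in control lungs. No 2 groups overlapped. It fell 6.03-fold in Yy1 mutants (log2 difference -2.59, SE 0.152; adjusted p = 5.85e-07) and 2.93-fold in Dicer mutants (-1.55, SE 0.152; adjusted p = 3.46e-05). Its level was 2.06-fold lower in Yy1 mutants than in Dicer mutants (-1.04, 95% interval -1.37 to -0.72; adjusted p = 0.00113). It was the only one of the 9 genes called between the mutants, where 4.96% of all genes were called, 3.39% lower and 1.57% higher in Yy1 mutants. The mutants did not overlap for Cckar and Cyp2f2, beside 13.8% of all genes (7.19% lower in Yy1 mutants). On all arrays Cckar stayed above the background limit.

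Tfcp2l1, a transcription factor of the grainyhead-like and CP2 family found in duct and airway epithelia, read 5.97, 6.52, 6.03 and 6.05 in Yy1 mutant lungs, 6.16, 5.92, 6.01 and 5.89 in Dicer mutant lungs, and 6.05, 6.23, 6.04 and 5.82 in control lungs. The groups overlapped, and Yy1 mutant 2 stood above the rest. Its difference was 0.10 in Yy1 mutants (95% interval -0.16 to 0.36; adjusted p = 0.722) and -0.04 in Dicer mutants (-0.30 to 0.22; adjusted p = 0.883). Without Yy1 mutant 2 the first of these was -0.02.

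Prom1 encodes a membrane protein of apical protrusions, known as CD133. Its levels were 8.06, 7.98, 8.12 and 7.94 in Yy1 mutant lungs, 7.94, 8.34, 8.15 and 8.31 in Dicer mutant lungs, and 8.18, 8.09, 8.05 and 7.94 in control lungs. The groups overlapped at a level well above background. The difference was -0.04 in Yy1 mutants (95% interval -0.24 to 0.15; adjusted p = 0.872) and 0.12 in Dicer mutants (-0.08 to 0.31; adjusted p = 0.494), so a 2-fold change lay outside both intervals.

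**Figure D3:**
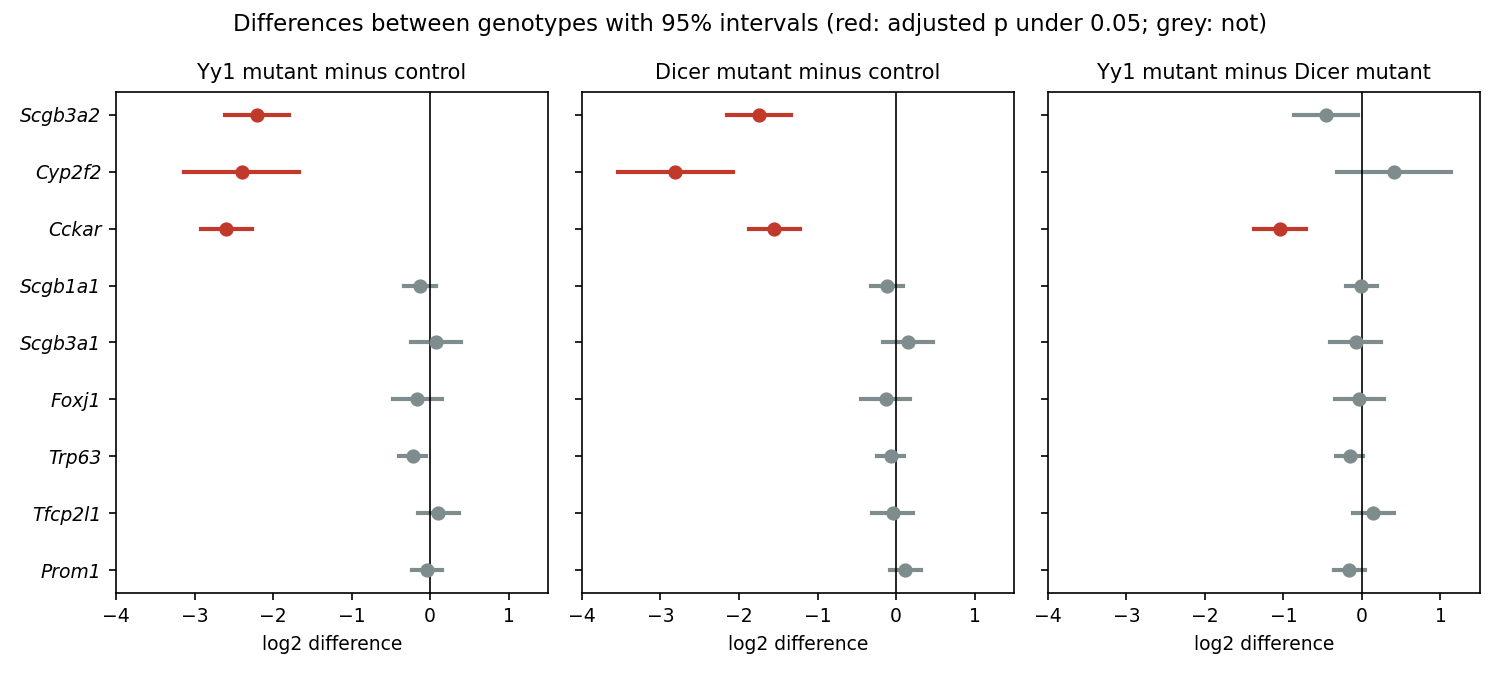
Log2 difference of each of the 9 genes for Yy1 mutant minus control, Dicer mutant minus control and Yy1 mutant minus Dicer mutant; points are estimates and lines their 95% intervals from the fit, red where the adjusted p was under 0.05. Scgb3a2, Cyp2f2 and Cckar lie between -2.81 and -1.55 in both mutants, and only Cckar was called between the mutants.

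The groups of Yy1 mutants and controls did not overlap for 3 of the 9 genes, beside 12.6% of all genes (7.05% lower in the mutants). For Dicer mutants and controls this held for 4 of the 9, the fourth being Scgb1a1, beside 16.0% of all genes (8.45% lower in the mutants). The calls of Scgb3a2, Cyp2f2 and Cckar against the controls held with each of the 12 arrays left out in turn. Over those fits the Cyp2f2 difference ranged from -2.78 to -1.98 in Yy1 mutants and from -3.19 to -2.39 in Dicer mutants. With the Y-high arrays left out, Scgb3a2, Cyp2f2 and Cckar were still called lower in both mutants, Cyp2f2 with adjusted p = 0.0288 in Yy1 mutants and 0.00487 in Dicer mutants.

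The mean of genes shared by all epithelium was lower in both mutants too, while in Dicer mutants single genes went both ways. Of 23 pan-epithelial genes, 11 fell and none rose in Yy1 mutants (47.8% called, beside 6.61% of all genes). In Dicer mutants 12 fell, 3 rose and 8 were not called (65.2% called, beside 8.75% of all genes). Among the 23, the cadherin Cdh1 and the adhesion molecule Epcam fell in Yy1 mutants (-0.88 and -0.45). Neither was called in Dicer mutants, at -0.32 for Cdh1 (adjusted p = 0.138, limma) and 0.11 for Epcam (adjusted p = 0.336). Their mean level ranged over the arrays from 7.71 to 7.99 in Yy1 mutant lungs, 7.94 to 8.16 in Dicer mutant lungs and 8.18 to 8.41 in control lungs, and all 23 were above the background limit in controls. The shift of that mean was -0.39 in Yy1 mutants and -0.21 in Dicer mutants.

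Each of the 9 genes was therefore also expressed relative to the mean of these epithelial genes on the same array, as a description with no test. On that scale Cckar differed by -2.20 in Yy1 mutants and -1.34 in Dicer mutants, Scgb3a2 by -1.81 and -1.54, and Cyp2f2 by -2.01 and -2.60, with no overlap between mutants and controls. The other 6 genes lay higher relative to the epithelial mean in the mutants, by 0.17 to 0.50 in Yy1 mutants and by 0.07 to 0.36 in Dicer mutants. Prom1 was at 0.15 ± 0.107 in Yy1 mutants, 0.12 ± 0.268 in Dicer mutants and -0.20 ± 0.0967 in controls, and its Yy1 mutant arrays did not overlap with the controls. Tfcp2l1 did not overlap with the controls in either mutant on this scale, with differences of 0.50 in Yy1 mutants and 0.16 in Dicer mutants. For genes at background, a higher relative value follows from the fall of the epithelial mean alone.

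**Figure D4:**
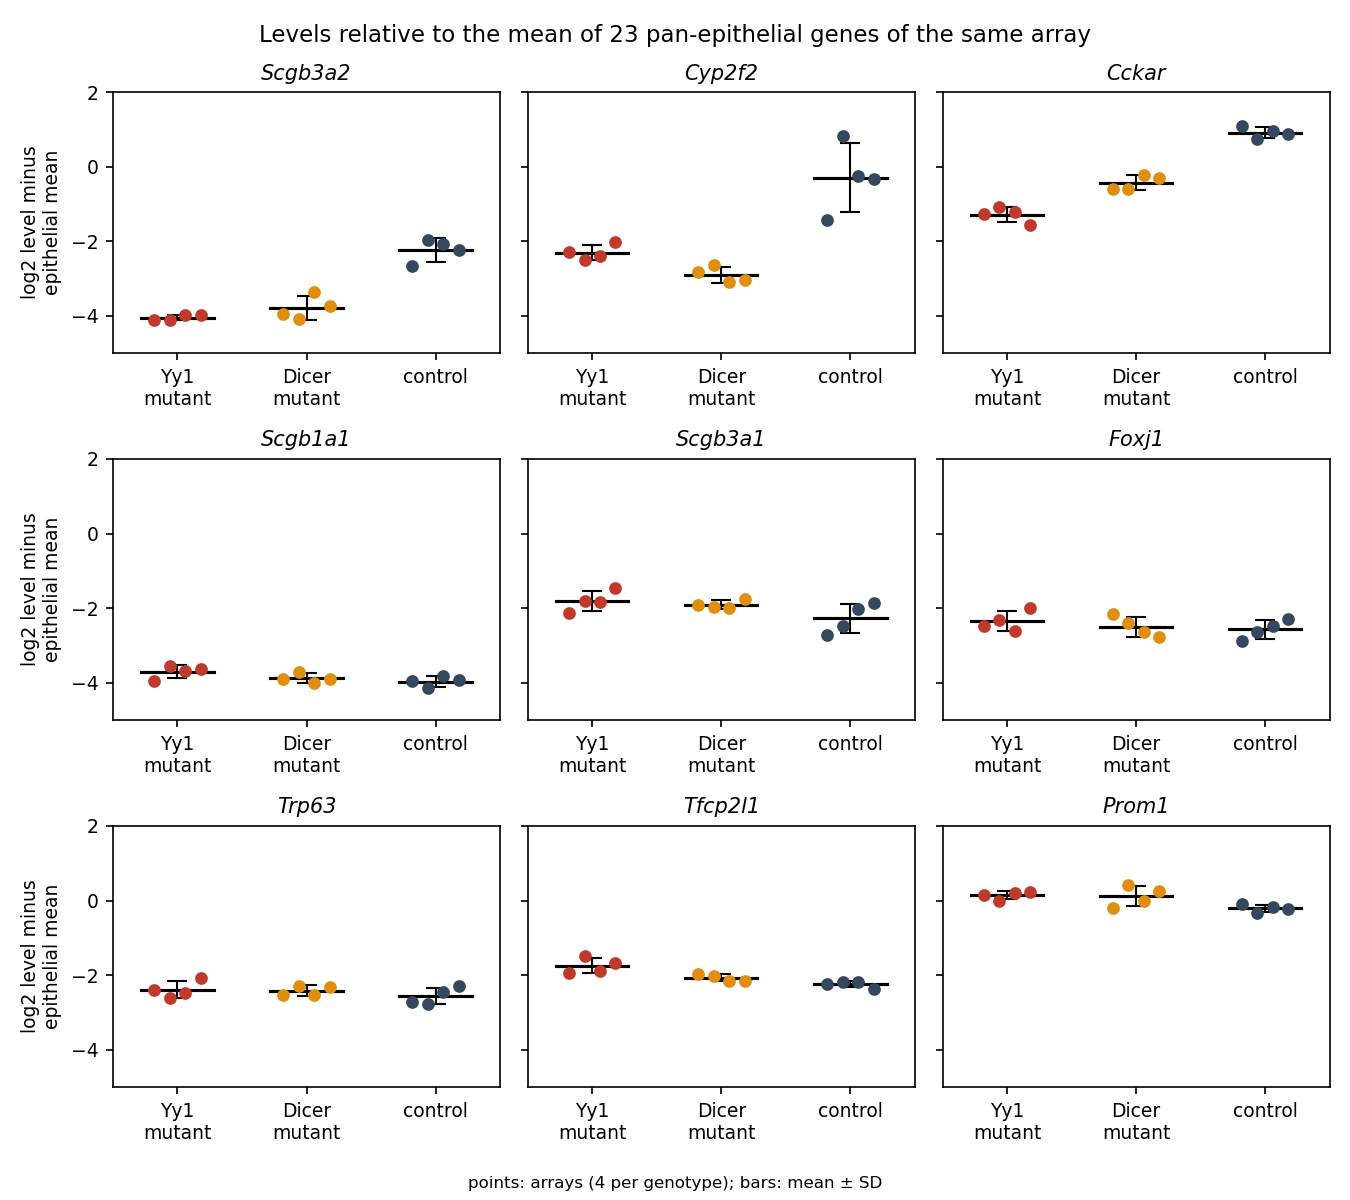
Log2 level of each of the 9 genes minus the mean of 23 pan-epithelial genes on the same array, by genotype; points are arrays, horizontal lines are means and vertical bars are the SD over 4 arrays. Scgb3a2, Cyp2f2 and Cckar remain lower in every mutant array than in any control array on this scale, with mean differences of -2.60 to -1.34.

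Tissue dissected with the lung bears on these genes, because basal cells also line the oesophagus and the trachea. Of 12 oesophagus and thymus genes 10 were under the background limit in controls, and their mean level ranged from 5.31 to 5.45 in Yy1 mutant lungs, 5.12 to 5.31 in Dicer mutant lungs and 5.32 to 5.59 in control lungs. Of these, the oesophageal keratin Krt4, named after its values were seen, fell by 0.53 in Dicer mutants (adjusted p = 0.0269), with all 3 genotypes under the background limit. Cartilage genes, which mark the trachea and main bronchi, had mean levels of 6.31 to 6.39 in Yy1 mutant lungs, 6.31 to 6.66 in Dicer mutant lungs and 6.64 to 6.75 in control lungs. Of 14, 4 fell in Yy1 mutants and 1 in Dicer mutants, or 28.6% and 7.14%, beside 6.61% and 8.75% of all genes. The mean level of 12 smooth muscle genes was 7.61 to 7.99, 7.72 to 8.17 and 8.72 to 8.90 in the same order of genotypes, that of 12 mesenchyme genes 10.07 ± 0.0638, 10.05 ± 0.0892 and 9.72 ± 0.0902 (mean ± SD, n = 4), and that of 12 macrophage genes 7.39 to 7.58, 7.50 to 7.71 and 6.96 to 7.11. The part of these shifts in the falls of Cckar, Cyp2f2 and Scgb3a2 was not tested.

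Other genes of secretory cells went both ways in Dicer mutants. Of 25 measured, 5 fell and none rose in Yy1 mutants, and 5 fell and 3 rose in Dicer mutants. The shares called were 20% and 32%, beside 6.61% and 8.75% of all genes. Median differences were -0.03 and -0.08, and in controls 11 of the 25 were under the background limit. Aldh1a1, a retinaldehyde dehydrogenase of airway epithelium, was 6.39 ± 0.302 in Yy1 mutants and 6.16 ± 0.121 in Dicer mutants, against 8.08 ± 0.173 in controls. It fell in both, with differences of -1.69 (SE 0.133; adjusted p = 6.14e-06) and -1.92 (SE 0.133; adjusted p = 2.54e-06). The claudin gene Cldn10 fell in Yy1 mutants (-0.88; adjusted p = 0.000402) and in Dicer mutants (-0.78; adjusted p = 0.000962), where its means of 5.30 and 5.40 were under the background limit, against 6.18 in controls. So did Lypd2, a gene of airway secretory cells (-0.61, adjusted p = 0.0065, and -0.76, adjusted p = 0.00125). Without the Y-high arrays, Lypd2 was not called in Yy1 mutants (adjusted p = 0.0512).

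Clic6, a gene of the chloride intracellular channel family, went opposite ways. It was 6.91 ± 0.119 in Yy1 mutants and 8.20 ± 0.214 in Dicer mutants, against 7.71 ± 0.128 in controls, so that it fell by 0.80 in Yy1 mutants (adjusted p = 0.000396) and rose by 0.50 in Dicer mutants (adjusted p = 0.00949). The remaining called genes were named after their values were seen. Cbr2, a carbonyl reductase of lung, fell by 1.05 in Yy1 mutants (adjusted p = 0.00878) and by 0.97 in Dicer mutants (adjusted p = 0.0125), though not without the Y-high arrays in the Dicer mutants (adjusted p = 0.0598). In Dicer mutants the mucin gene Muc5ac fell by 0.50 to a level under the background limit, the P450 gene Cyp4b1 rose by 0.61 and Agr2, a chaperone of mucin-making cells that lay near background, rose by 0.39. Cyp4b1 did not pass without control 1 (adjusted p = 0.0694), control 3 (0.0725), Dicer mutant 3 (0.0586) or Dicer mutant 4 (0.0637), nor did Agr2 without control 1 (0.083), control 2 (0.0585), Dicer mutant 2 (0.0697) or Dicer mutant 4 (0.0905).

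Although Foxj1 was not called, Ccno and Myb of the ciliated lineage fell in both mutants. Of 29 measured genes of ciliated cells, 3 fell and 1 rose in Yy1 mutants and 5 fell and none rose in Dicer mutants. The shares called were 13.8% and 17.2%, beside 6.61% and 8.75% of all genes. Median differences were -0.08 and -0.11, and 15 of the 29 were under the background limit in controls. Ccno, a cyclin needed for the multiplication of centrioles in multiciliated cells, was 5.17 ± 0.141 in Yy1 mutants and 5.17 ± 0.0817 in Dicer mutants, against 5.98 ± 0.0795 in controls. It fell by 0.81 in Yy1 mutants (SE 0.0789; adjusted p = 3.61e-05) and by 0.81 in Dicer mutants (adjusted p = 3.08e-05). The mutants were under the background limit and the control mean just above it. The limit therefore bounds the fold only as at least 1.08-fold and at least 1.15-fold lower. Myb, a transcription factor that promotes the ciliated fate, fell by 0.71 in Yy1 mutants (adjusted p = 0.0109) and by 0.99 in Dicer mutants (adjusted p = 0.00109). In Yy1 mutants the Myb call was lost without the Y-high arrays (adjusted p = 0.105). Myb is also expressed in blood progenitors.

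Gmnc, a relative of geminin that starts the multiciliated programme, was 5.23 ± 0.0925 in Yy1 mutants and 4.82 ± 0.0848 in Dicer mutants, against 5.44 ± 0.129 in controls, all under the background limit. Its signal fell by 0.63 in Dicer mutants (adjusted p = 0.000243) while its Yy1 mutant difference was -0.22 (adjusted p = 0.131), and the difference of 0.41 between the mutants passed the test (adjusted p = 0.00737), though not without the Y-high arrays (adjusted p = 0.124). Tppp3, a tubulin-binding protein gene, fell by 0.60 in Yy1 mutants (adjusted p = 0.00108) while its Dicer mutant difference was -0.25 (adjusted p = 0.115). Between the mutants its difference of -0.35 passed the test (adjusted p = 0.0405, limma). That call was lost in several other fits, among them without Yy1 mutant 3 (0.124) and without the Y-high arrays (0.471). Named after their values were seen, Mcidas, which works with Gmnc, fell by 0.49 in Dicer mutants, the axoneme gene Tekt1 fell by 0.30 there, and Cdhr4, a cadherin relative, rose by 0.38 in Yy1 mutants. Tekt1 did not pass without control 4 (adjusted p = 0.0577), Dicer mutant 2 (0.0664) or Dicer mutant 4 (0.0733).

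Basal and neuroendocrine genes were called at shares that are given here beside those of all genes. In Yy1 mutants 0% of the basal and 15.4% of the neuroendocrine genes were called, beside 6.61% of all genes. In Dicer mutants the shares were 6.25% and 7.69%, beside 8.75% of all genes. No test of these shares was run. Of 16 measured basal cell genes, none was called in Yy1 mutants and 1 fell in Dicer mutants, where the keratin Krt15 differed by -0.38 at a level near background (adjusted p = 0.0242; 0.0704 without control 1, 0.0613 without Dicer mutant 1 and 0.0759 without Dicer mutant 4). In controls 7 of these 16 were under the background limit. Of 13 neuroendocrine genes, 2 fell in Yy1 mutants and 1 in Dicer mutants. Ddc, the enzyme gene that makes amine transmitters, fell by 0.41 in Yy1 mutants (adjusted p = 0.0122; 0.0595 without the Y-high arrays). Cplx2, a gene of regulated secretion, fell by 0.31 in Yy1 mutants (adjusted p = 0.028) and 0.33 in Dicer mutants (adjusted p = 0.0179). Its call in Yy1 mutants was lost without control 1 (0.0771), control 4 (0.0713), Yy1 mutant 1 (0.0875) or Yy1 mutant 3 (0.077), and in Dicer mutants without control 1 (0.0517), control 4 (0.0512), Dicer mutant 2 (0.0616) or Dicer mutant 4 (0.0614). Leaving out the Y-high arrays also ended the calls of Cplx2 in both mutants (0.176 and 0.107) and, in Dicer mutants, of Krt15 (0.0732), Agr2 (0.0812) and Tekt1 (0.114).

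**Figure D5:**
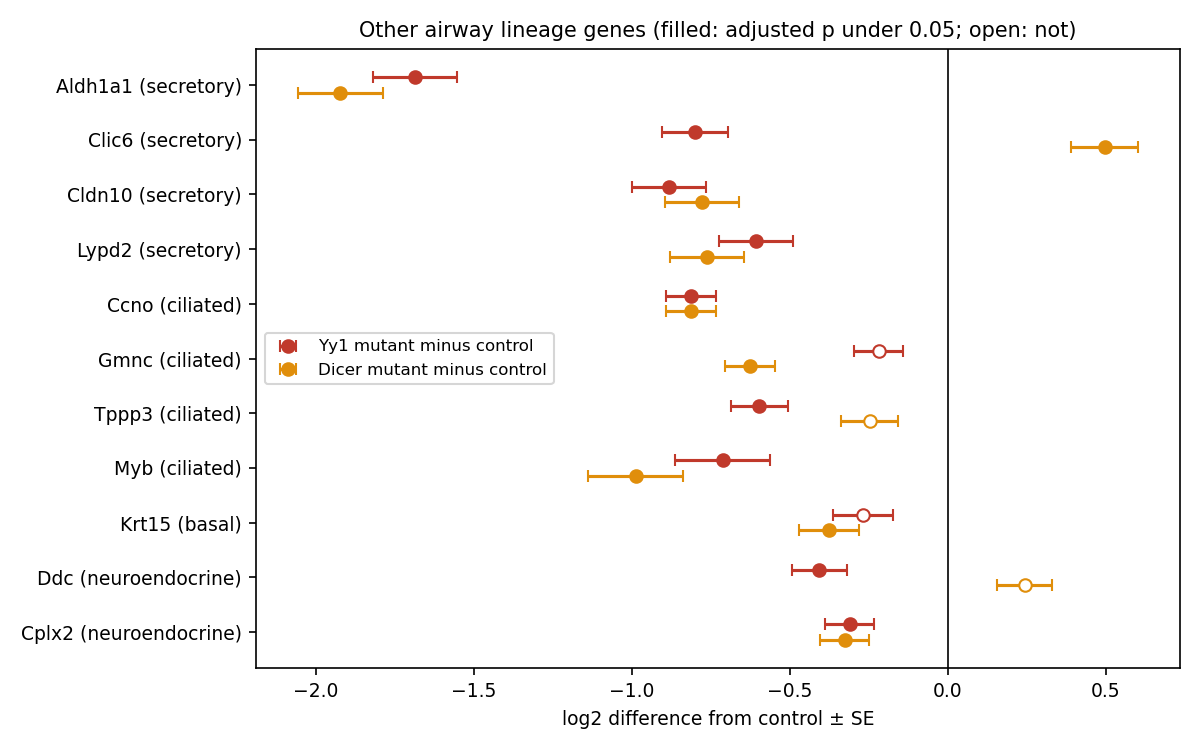
Log2 difference from control with its SE for up to 4 called genes of each of the secretory, ciliated, basal and neuroendocrine lists, in Yy1 mutants and Dicer mutants; filled points passed the test. Aldh1a1 lies lowest, at -1.69 and -1.92, Ccno lies at -0.81 in both, and Clic6 lies at -0.80 in Yy1 mutants and 0.50 in Dicer mutants.

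Regulators of airway epithelium were mostly above background in controls, where 1 of 24 was under the limit. Of the 24, 10 fell and 1 rose in Yy1 mutants, and 8 fell and 3 rose in Dicer mutants, with medians of -0.20 and -0.13. The share called was 45.8% in each mutant, beside 6.61% of all genes in Yy1 mutants and 8.75% in Dicer mutants. Sox2, which specifies the conducting airway, was 6.35 ± 0.271 in Yy1 mutants and 5.59 ± 0.279 in Dicer mutants, against 7.58 ± 0.208 in controls. It fell in both (-1.23, adjusted p = 0.000291, and -1.997, adjusted p = 6.82e-06). The Dicer mutant mean was under the background limit, which bounds its fold as at least 3.48-fold lower than in controls. The measured difference of 0.77 between Yy1 and Dicer mutants (adjusted p = 0.0104; 0.152 without the Y-high arrays) is at least 1.48-fold by the same bound. Foxa2, a forkhead factor of lung epithelium, fell in Yy1 mutants (-0.96; adjusted p = 2.41e-05) and in Dicer mutants (-0.50; adjusted p = 0.00312). Gata6, a zinc finger factor, rose in both (0.41, adjusted p = 0.00285, and 0.64, adjusted p = 7.39e-05). In RNA of mixed cell types, the cells in which it rose were not tested. Id2, an inhibitor of helix-loop-helix factors known from the distal tips, rose in Dicer mutants (0.85; adjusted p = 2.11e-05), and its difference in Yy1 mutants was 0.10 (adjusted p = 0.573).

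The genes whose values were most like those of the 3 called members over the 12 arrays were found by the root mean square difference of their mean-centred log2 levels. For Scgb3a2 these were the chloride channel gene Cftr (0.326), the smooth muscle myosin gene Myh11 (0.339) and the smooth muscle actin gene Actg2 (0.341). Cckar was nearest to Cftr (0.283), Scgb3a2 (0.363) and Tinag (0.370), a basement membrane protein gene. Nearest to Cyp2f2 were the membrane mucin gene Muc1 (0.534), the protease gene Cym (0.546) and Scgb3a2 (0.624). All these genes come from the same 12 RNA samples of mixed cell types, so likeness is given as a description only.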

How the data were processed

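The authors deposited log2 expression values per probe set, already normalised between arrays (array medians 5.99 to 6.08). No label or header names the summary method, normalisation or software. Base 2 was judged from the lowest and highest values, 1.10 and 13.6. Per the labels, RNA was extracted with Trizol and labelled with biotin by the Affymetrix protocol. Of 41345 probe sets, the 23521 paired with exactly 1 symbol were used, and 23328 of these matched a RefSeq gene by Entrez identifier. No probe set was filtered for dimness. The 3 genotypes were fitted together with limma 3.58.1 (R 4.3.3; lmFit and eBayes, 9 residual degrees of freedom), two-sided, with Benjamini-Hochberg adjustment over 22180 genes. Intervals are limma's 95% intervals, and 0 pairs of arrays were identical. Tables and plots used Python 3.11.15, pandas 2.3.3, numpy 2.4.6 and matplotlib 3.10.9.

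The members, gene lists and tests were chosen with earlier results of these data known. Named genes are the 9 members, Yy1 and Dicer1, up to 4 called genes of each lineage list by smallest p, and the 3 most alike genes of each called member. Other genes are said to have been named after their values were seen. Alternatives are given in the closing section.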

Additional observations from a re-analysis of the deposited data

Results flagged for a closer look

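Cckar responded differently to the 2 mutations. Its level was lower in Yy1 mutants than in Dicer mutants by a log2 difference of -1.04, which passed the test of the difference itself (adjusted p = 0.00113, limma), with all 4 Yy1 mutant arrays below all 4 Dicer mutant arrays. Its adjusted p ranged from 0.000278 to 0.0104 over 22 alternatives. Of 27 sets of 4 arrays tested for an array far from the rest, 1 had one: Tfcp2l1 read 6.52 in Yy1 mutant 2, against 5.97 to 6.05 in the other 3 Yy1 mutant arrays. Chance gives such an array in about 1 of 20 sets. Yy1 mutant 2 is also one of the Y-high arrays.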

How the results depend on the processing

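The count of called members was 3, 3 and 1 for Yy1 mutant against control, Dicer mutant against control and Yy1 mutant against Dicer mutant, and it stayed so with each array left out in turn. Without the dimmest 30% of genes, Scgb3a2 was not tested and the counts were 2, 2 and 1. With only the 2 groups compared in the fit, the last count was 2, as Cyp2f2 joined, with both mutants under the background limit. Members near background in controls numbered 3, or 3 to 4 with a control left out, 1 at the 90th percentile, 6 at the 99th and 1 by the dimmest 30% of all genes. With the other probe set of Cyp2f2, tried after seeing the data, the called members were 2, 2 and 1. Same-numbered arrays of different genotypes did not deviate together (correlations -0.16 to 0.19), so the numbers were not taken as pairs. With the replicate number as a block, the counts were again 3, 3 and 1, with Cckar at adjusted p = 2.09e-05, 0.000301 and 0.00411, and 1301, 1848 and 997 of all genes were called, beside 1465, 1940 and 1101 without it. Without the Y-high arrays 606, 976 and 435 of all genes were called. With the level of Xist minus that of Eif2s3y as a covariate, the counts of called members were 3, 3 and 1.

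The cause of these changes was not tested. Among the 9 genes, signs turned only for members that were not called in either fit. With arrays left out, Scgb3a1 ranged from -0.0754 to 0.17 and Tfcp2l1 from -0.0211 to 0.17 in Yy1 mutants, Tfcp2l1 from -0.11 to 0.0244 in Dicer mutants, and between the mutants Scgb1a1 from -0.0992 to 0.0674, Scgb3a1 from -0.15 to 0.0168 and Foxj1 from -0.13 to 0.10. Array weights gave -0.0368 for Scgb3a1 in Yy1 mutants and 0.000196 for Foxj1 between the mutants, and quantile normalisation gave 0.00615 for Tfcp2l1 in Dicer mutants. Without the Y-high arrays, Tfcp2l1 was at -0.0267 in Yy1 mutants and -0.0214 between the mutants. Relative to the epithelial mean, Yy1 mutants differed by 0.26 for Scgb1a1, 0.23 for Foxj1, 0.17 for Trp63 and 0.35 for Prom1, and Dicer mutants by 0.089 for Scgb1a1, 0.0743 for Foxj1, 0.14 for Trp63 and 0.16 for Tfcp2l1.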

Other observations

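On its brighter probe set, Cyp2f2 varied among the control lungs more than nearly any other gene. Its SD of 0.986 over the 4 controls was exceeded by that of only 2 of 22180 genes, whereas its SD was 0.0923 in Yy1 mutants and 0.157 in Dicer mutants, where the signal was under the background limit. The controls ran in the same order for Cyp2f2 (brighter probe set), Scgb3a2, Cbr2 and Myb. Control 2 was highest, then control 3, control 4 and control 1. Cbr2 read 7.87, 7.15, 6.95 and 6.53 in that order and Myb 8.10, 7.53, 7.27 and 7.21. Of all genes, 3.44% had this order. Cckar, which was as firmly called, did not follow it. Nor did the other probe set of Cyp2f2, which read 6.53, 5.87, 6.20 and 5.78 in controls 2, 3, 4 and 1. The shared order was noticed after the values were seen and was not tested. The labels give no litter or exact age for the controls.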
